A study of Mus musculus with 11 samples.

Results

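Genes that mark macrophages and other myeloid cells were followed in whole kidneys of mice with and without Alport disease, and of diseased mice given an inhibitor of the microRNA miR-21. The set holds 34 genes, chosen by symbol: receptors for the growth factors of these cells, integrins, pattern and scavenger receptors, lysosomal proteins, the phagocyte oxidase and general leukocyte proteins, in 9 roles. Of the 34 genes, 32 had a row in the count files, out of 24914 rows, and all 32 were among the 14380 loci that passed the filter on low counts. Cd68, a lysosomal membrane protein, and Spi1, which encodes the transcription factor PU.1, were not analysed here. Csf1r carried the same count as its neighbour Hmgxb3 in every library and is given as the joint locus Csf1r/Hmgxb3, so 31 genes had a locus of their own.

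The kidneys came from 129X1/SvJ mice studied at 5.5 weeks of age. Alport syndrome is an inherited disease of the collagen IV network of the glomerular basement membrane, and mice without Col4a3, which encodes a chain of that network, develop progressive glomerular and tubulointerstitial damage. There were 3 groups. HET PBS stands for Col4a3+/- animals that received PBS (n = 3), and KO PBS for Col4a3-/- animals that received the same vehicle (n = 4). KO antimiR-21 stands for Col4a3-/- animals that received antimiR-21, an oligonucleotide that binds and blocks miR-21 (n = 4). The control group is thus heterozygous, not wild type. All 11 samples are kidney RNA sequenced as messenger RNA, and the labels give neither the dose nor the sex.

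Macrophages are resident in the healthy kidney, where they lie between the tubules, and monocytes from the blood add to them when the tissue is injured. They take up debris through scavenger and lectin receptors, break it down in lysosomes, and adhere and migrate with the help of integrins. Many genes of the set are not private to macrophages: Ptprc, Lcp1, Coro1a, Hcls1, Cd53, Laptm5 and Plek are made by most leukocytes, the oxidase genes by neutrophils too, and Cd14 and Gpnmb also by injured tubule cells. In whole tissue, fewer cells of a type and less RNA per cell cannot be told apart.

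The oligonucleotide acts on miR-21, whose mature sequence in RefSeq (GRCm38.p6, chr11:86584120-86584141, minus strand) is shown because the seed, bases 2 to 8 in capitals, sets which messages it pairs with.
mmu-miR-21a-5p: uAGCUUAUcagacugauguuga
The 7-base match to this seed, ATAAGCT on the transcript strand, was searched in the longest annotated 3′ UTR of each gene. It lay in 1 of the 34 genes (2.9%), beside 7.5% of 21103 genes with a 3′ UTR, and the median UTR was 1029.5 bases for the set and 1089 bases for all genes. The single match was in Gpnmb, a lysosomal membrane glycoprotein, and is printed in capitals with 10 bases on either side. Base 471 of the UTR is the first base in capitals, and the printed stretch begins 10 bases before it.
Gpnmb 3′ UTR, from base 471: aggcagtctaATAAGCTgtgtgattat
The Gpnmb level in KO antimiR-21 differed from that in KO PBS by 0.19 ± 0.55 (SE) on the log2 scale, an interval of -0.90 to 1.27, and by 1.14 ± 0.40 (SE) without the library of KO PBS replicate 1, which stood apart from the others.

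Promoters were read because PU.1, the product of Spi1, is the best known regulator of myeloid genes and binds a purine-rich box with the core GAGGAA. RefSeq promoter windows (GRCm38.p6, 250 bases before to 50 after the start) were found for 24 of the 34 genes, and 14 of these (58.3%) held GAGGAA on either strand. Of 27025 genes with a window, 31.3% held it, as did 28.3% of all 32851 windows. The last 100 bases before the start are shown, 5′ to 3′ on the strand of the gene, for 5 genes whose values are given below. All 5 are among the 14 with the motif, so they do not show how often it occurs. GAGGAA and its reverse complement TTCCTC are in capitals, and a match is a description of these letters, not of binding.
Itgam (chr7:128062540-128062639, plus strand): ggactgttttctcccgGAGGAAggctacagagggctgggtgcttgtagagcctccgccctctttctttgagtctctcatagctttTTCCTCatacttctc
Clec7a (chr6:129472780-129472879, minus strand): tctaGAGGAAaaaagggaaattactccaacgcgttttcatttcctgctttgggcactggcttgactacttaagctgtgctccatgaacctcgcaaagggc
Trem2 (chr17:48346301-48346400, plus strand): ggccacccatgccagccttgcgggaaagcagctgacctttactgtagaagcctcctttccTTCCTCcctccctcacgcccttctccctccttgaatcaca
Cd53 (chr3:106790150-106790249, minus strand): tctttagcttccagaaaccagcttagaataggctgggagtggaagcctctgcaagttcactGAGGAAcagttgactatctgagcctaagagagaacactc
Ms4a7 (chr19:11336147-11336246, minus strand): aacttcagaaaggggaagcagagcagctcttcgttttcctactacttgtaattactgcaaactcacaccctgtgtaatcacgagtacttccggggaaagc
The printed stretches of Itgam, Clec7a, Trem2 and Cd53 hold such a box. That of Ms4a7 does not: its box, which counts among the 14, lies beyond the start, at position 44.

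Libraries held 17.9 to 39.7 M counts once loci with identical counts were joined, and the members' own counts ran from 5 reads in the lowest library of Gpnmb to 7957.5 in the highest of Csf1r/Hmgxb3. Levels are given as CPM, counts per M of the library total, with TMM scaling, a correction of library size, and gene positions are those of GENCODE vM21 on GRCm38. Col4a3 shared all its reads with its neighbour Col4a4, and this joint locus ran from 870 to 1271 CPM in HET PBS, from 607 to 997 in KO PBS and from 515 to 809 in KO antimiR-21, so it does not check the genotype labels. Markers of kidney cells were high throughout: 6 proximal tubule genes summed to 13922 to 14889 CPM in HET PBS, 11129 to 12358 in KO PBS and 11887 to 14742 in KO antimiR-21. The mean was lower in KO PBS than in HET PBS for 6 of these 6 genes, and their part in the members' differences was not tested. Reads of Y-linked genes were present in 5 libraries (HET PBS 2 and 3, KO PBS 3 and 4, KO antimiR-21 replicate 4) and near 0 in the other 6. The library of KO PBS replicate 1 stood apart: its summed level of 5 injured tubule markers (Havcr1, Lcn2, Krt20, Vcam1, Spp1) was 7064 CPM, beside 1545 to 3741 in the other KO PBS libraries, 786 to 2078 in HET PBS and 2146 to 2801 in KO antimiR-21. Its 6 fibroblast genes summed to 754 CPM, beside 396 to 624 in the rest of its group, 250 to 439 in HET PBS and 391.7 to 646 in KO antimiR-21. Against HET PBS, 6 of 6 fibroblast genes had a higher mean in KO PBS (median 0.75 on the log2 scale) and 6 of 6 in KO antimiR-21 (median 0.61), and their part was not tested. That library had the highest level of all 11 for 26 of the 32 genes, so values that it moves most are given with and without it.

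Against heterozygous kidneys, knockout kidneys given PBS had a higher mean for 31 of the 32 genes, by a median of 0.64 on the log2 scale, but no gene passed the threshold. The median over all 14380 loci was -0.02. The largest differences were those of Gpnmb, the bacteriolytic enzyme lysozyme (Lyz2), the endotoxin co-receptor Cd14 and the integrin chains Itgax and Itgam, at 0.98 to 1.95, or at 0.58 to 1.0 without KO PBS replicate 1. The only gene with a lower mean was Cd163, a receptor for haemoglobin bound to haptoglobin, at -0.14 ± 0.37 (SE). Csf1r/Hmgxb3 was nearly level at 0.04 ± 0.09.

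In edgeR's quasi-likelihood test with Benjamini-Hochberg adjustment over all loci, 0 of 32 genes had an adjusted p under 0.05, as did 0 of all loci (0%), and the smallest adjusted p in the set was 0.456. At an unadjusted p under 0.05, 16 genes were higher, beside 4.21% of all loci, and 0 were lower, beside 2.73%. For 7 genes every KO PBS library lay above every HET PBS library, beside 3.55% of all loci. The 7 were Gpnmb, Lyz2, Cd14, Itgax, Itgam, Csf2rb and Trem2. The members are read from the same libraries and partly from the same cells, so such counts are not counts of independent genes.

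Without KO PBS replicate 1 the median was 0.31, with 30 genes of 32 positive, all but Cd163 (-0.32) and Cd84 (-0.15), and 6 higher at an unadjusted p under 0.05 in edgeR, beside 2.28% of all loci. Leaving out HET PBS replicate 2 or replicate 3 left 7 such genes each, beside 2.48% and 4.22% of all loci, with medians of 0.53 and 0.58. Without HET PBS replicate 1 there were 23, beside 7.53% of all loci, and the median was 0.85. Among libraries without Y-linked reads (2 against 1) the median was 0.40, and among those with them (2 against 2) it was 0.57, each in the same direction as the whole.

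**Figure D1:**
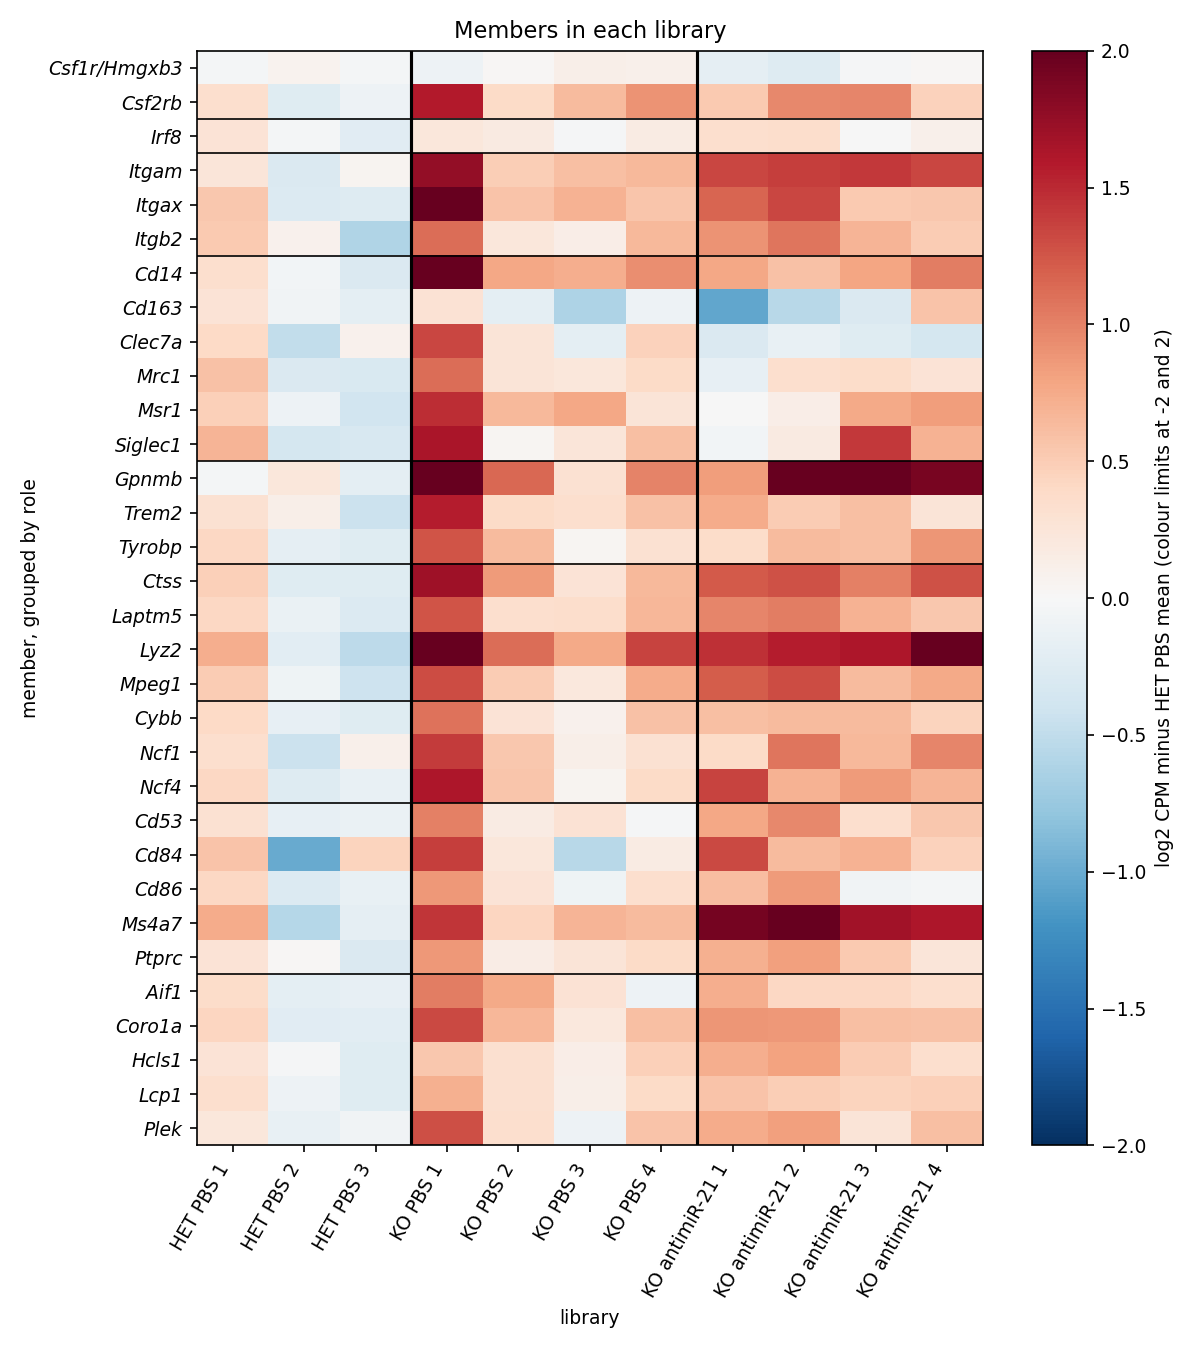
Heat map of the log2 CPM of the 32 members, each set against its mean in HET PBS (rows, grouped by role with black lines) in the 11 libraries (columns, by group), with blue for lower, red for higher, and values beyond -2 or 2 shown at the end colours. The column of KO PBS replicate 1 holds the highest value for 26 of the 32 members, and Ms4a7 is darker in the 4 KO antimiR-21 columns than in any PBS column.

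The per-library mean of this deviation over all members summarises the pattern. It was 0.39, -0.19 and -0.20 in HET PBS, 1.29, 0.43, 0.22 and 0.48 in KO PBS, and 0.67, 0.79, 0.66 and 0.65 in KO antimiR-21. HET PBS replicate 1 overlapped the lower KO PBS libraries, being above KO PBS replicate 3, and was the highest of its group for 30 of 32 genes. The 4 treated libraries lay above HET PBS and above 3 of the 4 KO PBS libraries. Their spread was small: the group means were 0.69 ± 0.06 (SD, n = 4) in KO antimiR-21 and 0.61 ± 0.47 (SD, n = 4) in KO PBS, the latter 0.38 ± 0.14 (SD, n = 3) without replicate 1.

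**Figure D2:**
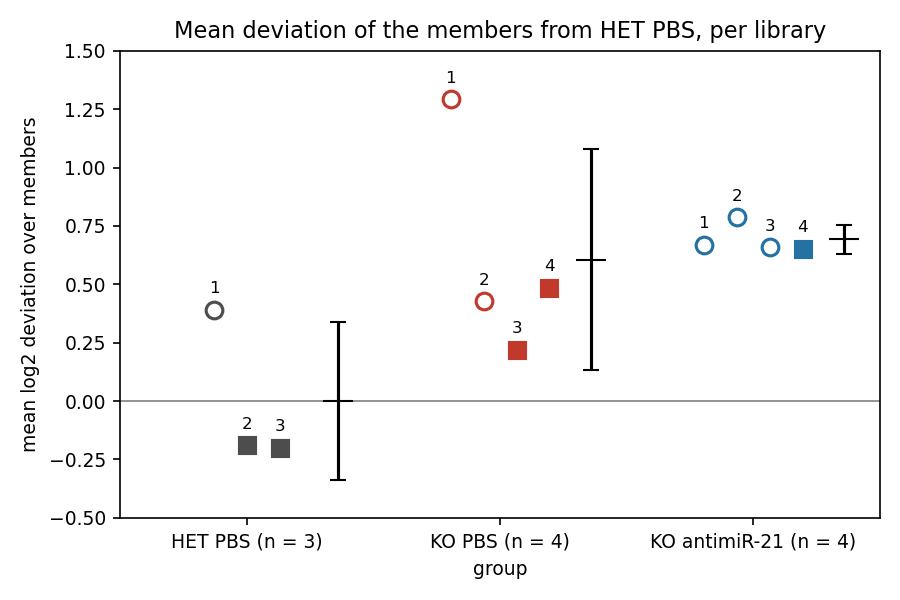
Mean over the 32 members of log2 CPM minus the HET PBS mean (vertical axis) for each library by group, numbered by replicate, with filled squares for libraries with Y-linked reads, open circles for those without, and bars for the group mean and SD. KO PBS replicate 1 stands at 1.29, and the treated libraries lie between 0.65 and 0.79.

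With antimiR-21, the set as a whole did not move in 1 direction relative to knockout kidneys given PBS: 18 of 32 genes had a higher mean and 14 a lower one, with a median of 0.04 beside 0.00 over all loci. The members that differed most pointed in opposite directions. Ms4a7, a membrane protein of the family of the B cell antigen CD20 that is made by macrophages, was higher after antimiR-21 by 1.02 ± 0.31 (SE) on the log2 scale. Clec7a, the receptor Dectin-1 for fungal beta-glucan, was lower by 0.86 on that scale, with an SE of 0.32. Neither passed the adjusted threshold.

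Against KO PBS, edgeR called 0 of 32 genes at an adjusted p under 0.05 and 0 of all loci (0%), and the smallest adjusted p in the set was that of Ms4a7, 0.392. At an unadjusted p under 0.05, Ms4a7 was the 1 gene higher, beside 4.76% of all loci, and Clec7a the 1 gene lower, beside 3.46%. Each count, 1 of 32, is a smaller share than that background. Ms4a7 was the 1 gene whose treated libraries all lay above all KO PBS libraries, beside 2.34% of all loci.

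This comparison turns on KO PBS replicate 1. Without it, 27 of 32 genes had a higher mean after antimiR-21, the median was 0.31, and edgeR gave 6 genes an unadjusted p under 0.05: Itgam, Ms4a7, Ctss, Gpnmb, Cd53 and Ncf4, all higher, beside 4.55% of all loci, with 0 past the adjusted threshold. Leaving out KO PBS replicate 3 gave a median of -0.10, with 13 genes positive. Among libraries without Y-linked reads (3 against 2) the median was -0.12 with 22 of 32 genes lower, and among those with them (1 against 2) it was 0.24 with 24 higher, so the direction did not hold in both. KO PBS replicate 1 is 1 of the 2 controls of the former comparison.

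Treated knockout kidneys also stood above heterozygous kidneys: 29 of 32 genes had a higher mean, by a median of 0.65 beside 0.00 over all loci. Ms4a7 led by p, followed by the integrin alpha chain Itgam (CD11b), Lyz2 and the lysosomal protease cathepsin S (Ctss). The genes with lower means were Clec7a, Cd163 and Csf1r/Hmgxb3. This comparison shares the HET PBS libraries with the first and the treated libraries with the second, so the 3 sets of differences are not independent.

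In edgeR, 0 of 32 genes had an adjusted p under 0.05 against HET PBS after antimiR-21, beside 1 of all loci (0.00695%), and the smallest adjusted p was 0.364. At an unadjusted p under 0.05, 18 genes were higher, beside 5.04% of all loci, and 0 were lower, beside 3.01%. For 17 genes all treated libraries lay above all HET PBS libraries, beside 3.88% of all loci. Leaving out HET PBS replicate 2 or replicate 3 left 10 and 8 genes higher at an unadjusted p under 0.05, beside 2.73% and 2.48% of all loci, with medians of 0.58 and 0.53. Without HET PBS replicate 1 there were 21, beside 10.7% of all loci, and the median was 0.89. The median was 0.36 among libraries without Y-linked reads (3 against 1) and 0.75 among those with them (1 against 2). KO PBS replicate 1 is in neither group compared here, but enters through the filter, the scaling and the estimate of the spread. Without it, Itgam passed the adjusted threshold in edgeR (adjusted p = 0.0265) at the same difference of 1.38.

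**Figure D3:**
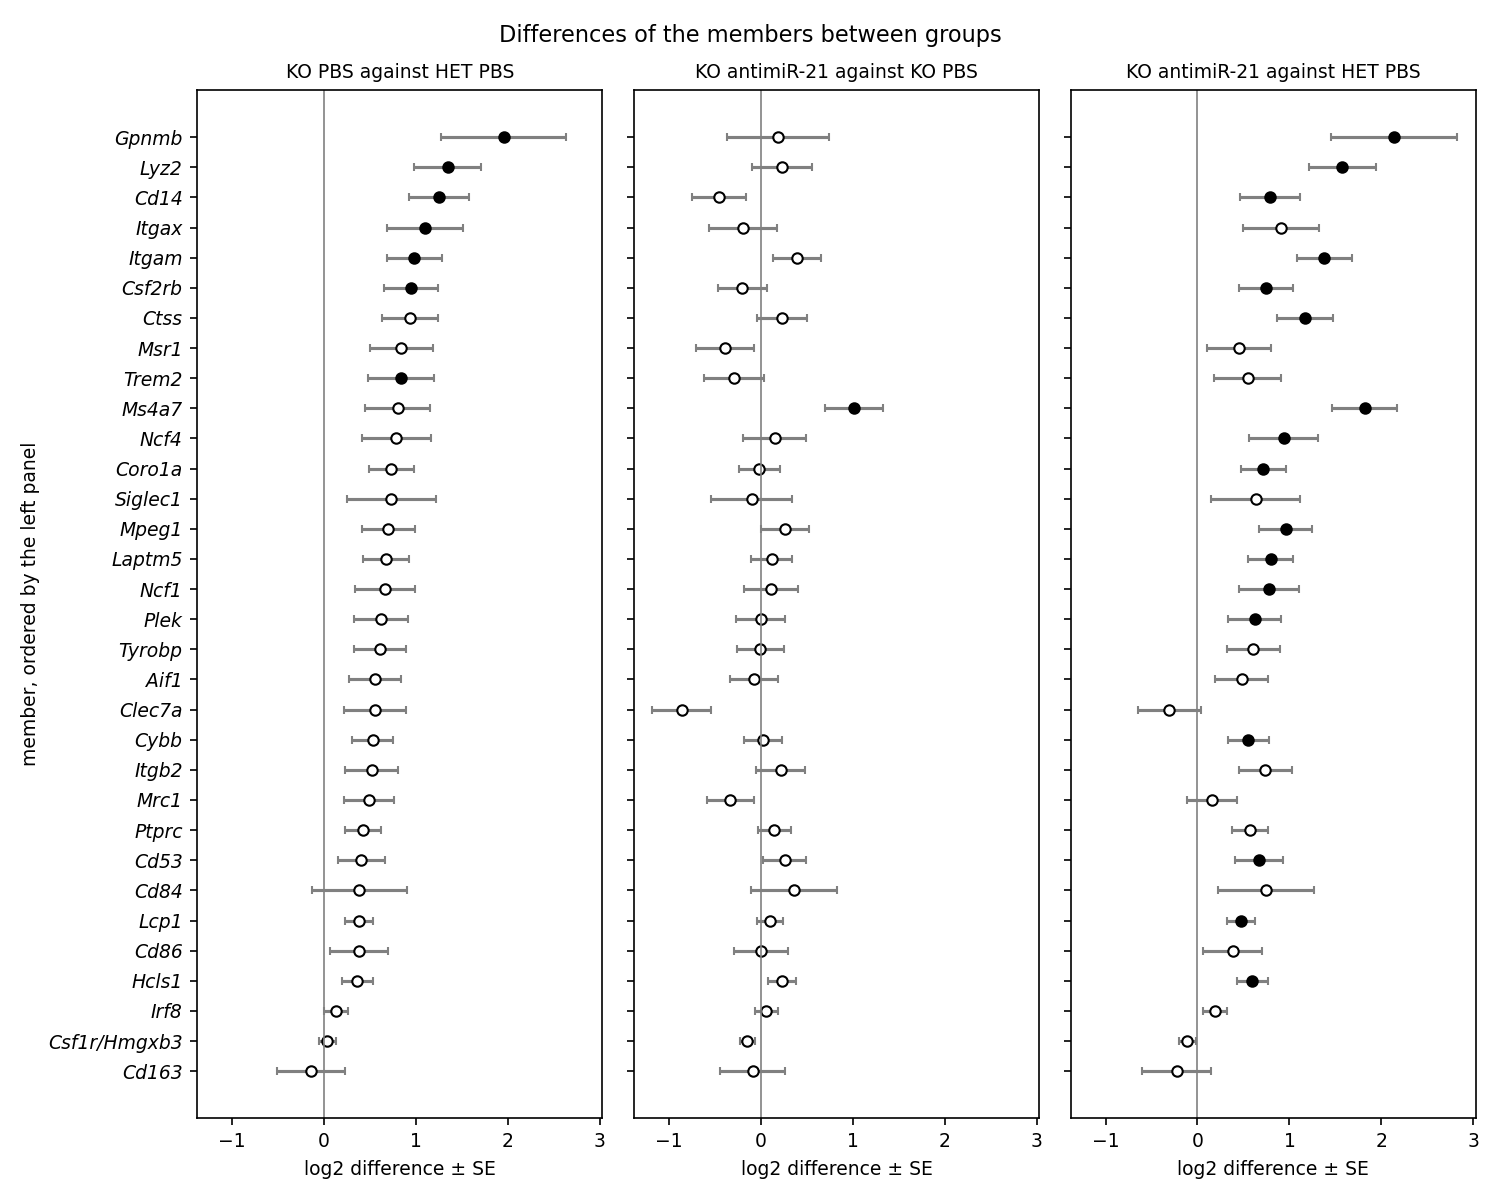
edgeR log2 differences (horizontal axis, bars ± SE) of the 32 members (rows) in the 3 comparisons (panels), with filled points where the group ranges do not overlap. In the left and right panels 31 and 29 members lie above 0, and in the middle panel 18 do, with Ms4a7 at 1.02 and Clec7a at -0.86 farthest from it.

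Growth factor receptors gave unlike values. Csf1r encodes the receptor for macrophage colony-stimulating factor. The joint locus Csf1r/Hmgxb3 was at 204, 218 and 203 CPM in HET PBS, at 194, 212, 225 and 224 in KO PBS, and at 185, 173, 204 and 211 in KO antimiR-21. The groups overlapped, the treated libraries lay below the KO PBS mean of 214 ± 14.7 (SD, n = 4) in each case, and which of the joined genes the reads come from is unknown. Csf2rb, the shared beta chain of the receptors for GM-CSF, interleukin 3 and interleukin 5, was at 4.64, 3.07 and 3.38 CPM in HET PBS, at 11.1, 4.76, 5.68 and 6.83 in KO PBS, and at 5.25, 7.18, 7.26 and 5.03 in KO antimiR-21. Every knockout library of either treatment was above every HET PBS library, and KO PBS replicate 1 was the highest. The differences from HET PBS were 0.94 ± 0.29 in KO PBS and 0.75 ± 0.29 in KO antimiR-21 (log2, SE; edgeR adjusted p = 0.516 and 0.59).

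Irf8, a transcription factor of the monocyte and dendritic cell lineage, was at 29.4, 23.7 and 21 CPM in HET PBS, at 28.8, 27.8, 24.0 and 27.6 in KO PBS, and at 30.9, 31.2, 24.2 and 26.3 in KO antimiR-21. It varied least of the members with a locus of their own, and its groups overlapped in each comparison. Its difference from HET PBS was 0.13 ± 0.13 in KO PBS and 0.19 ± 0.13 in KO antimiR-21 (log2, SE).

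Integrins of the beta 2 family let leukocytes adhere to endothelium and matrix. Itgam (chr7:128062640-128118491, next to Itgax) encodes the alpha chain of the complement receptor CR3. It was at 3.86, 2.64 and 3.38 CPM in HET PBS, at 11.2, 4.61, 4.98 and 5.12 in KO PBS, and at 8.31, 8.62, 8.84 and 8.35 in KO antimiR-21. All 8 knockout libraries were above the HET PBS libraries, and the 4 treated ones lay within a narrow band that only KO PBS replicate 1 exceeded. The mean was 3.29 ± 0.62 in HET PBS (SD, n = 3), 6.49 ± 3.18 in KO PBS (SD, n = 4; 4.90 ± 0.27 without replicate 1) and 8.53 ± 0.25 in KO antimiR-21 (SD, n = 4). Itgam differed from HET PBS by 0.98 ± 0.30 in KO PBS and by 1.38 ± 0.30 in KO antimiR-21 (log2, SE; edgeR adjusted p = 0.508 and 0.364), the former 0.58 ± 0.17 without KO PBS replicate 1. Treated and untreated knockout kidneys differed by 0.39 ± 0.27 with all libraries and by 0.80 ± 0.16 without KO PBS replicate 1 (edgeR adjusted p = 0.769 and 0.452). Exons of Itgam overlap those of the annotated gene Gm49368, so its count is less certain.

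Itgb2, the common beta chain (CD18), was at 10.2, 7.47 and 4.62 CPM in HET PBS, at 15.5, 8.32, 7.75 and 11.1 in KO PBS, and at 13.2, 14.9, 11.3 and 10.1 in KO antimiR-21. HET PBS replicate 1 lay inside the range of both knockout groups. Itgax, the alpha chain CD11c, ran from 2.20 to 3.91 CPM in HET PBS, from 3.96 to 11.3 in KO PBS and from 3.88 to 6.85 in KO antimiR-21. Its KO PBS libraries other than replicate 1 lay between 3.96 and 4.41 CPM, just above HET PBS replicate 1. The differences of Itgb2 and Itgax in KO PBS from HET PBS were 0.52 and 1.10 with all libraries, and 0.29 ± 0.27 and 0.58 ± 0.30 without KO PBS replicate 1 (log2, SE).

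For pattern and scavenger receptors the treated means lay below the KO PBS means for 6 of 6 genes, by a median of 0.36 on the log2 scale. The same held for 2 of 2 growth factor receptors. Without KO PBS replicate 1 the count was 4 of 6 for pattern and scavenger receptors, with a median difference of -0.04. For growth factor receptors it was 1 of 2, with Csf2rb at 0.10 ± 0.22 (log2, SE). Cd14 was at 8.07, 6.09 and 5.20 CPM in HET PBS, at 27.8, 10.9, 10.6 and 12.2 in KO PBS, and at 10.9, 9.61, 11.1 and 13.1 in KO antimiR-21. All knockout libraries exceeded all HET PBS libraries, the treated ones lay beside KO PBS replicates 2 to 4, and replicate 1 stood alone. Cd14 differed from HET PBS by 1.25 ± 0.33 in KO PBS and by 0.79 ± 0.33 in KO antimiR-21 (log2, SE; edgeR adjusted p = 0.456 and 0.59), the former 0.80 ± 0.18 without KO PBS replicate 1. The difference between treatments was -0.46 ± 0.29 with all libraries and 0.00 ± 0.17 without KO PBS replicate 1. Injured tubule markers moved with Cd14 in that library, and their part in its level was not tested.

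Clec7a (chr6:129461591-129472779) was at 3.13, 1.65 and 2.49 CPM in HET PBS, at 6.06, 2.81, 2.03 and 3.26 in KO PBS, and at 1.91, 2.10, 1.96 and 1.82 in KO antimiR-21. The treated libraries lay close together at the low end, with only HET PBS replicate 2 below them all and KO PBS replicate 3 inside their range. The mean was 3.54 ± 1.76 in KO PBS (SD, n = 4; 2.70 ± 0.62 without replicate 1) and 1.95 ± 0.12 in KO antimiR-21 (SD, n = 4). The difference between treatments was -0.86 ± 0.32 with all libraries (log2, SE; edgeR adjusted p = 0.507) and -0.47 ± 0.26 without KO PBS replicate 1 (edgeR adjusted p = 0.682). An exact permutation test over the samples gave p = 0.0571.

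Mrc1, the mannose receptor CD206, was at 14.7, 8.02 and 7.91 CPM in HET PBS, at 21.3, 11.7, 11.5 and 12.8 in KO PBS, and at 8.69, 12.4, 12.7 and 11.8 in KO antimiR-21. HET PBS replicate 1 was above all but 1 of the knockout libraries, so the groups overlapped. Among the remaining receptors, Msr1, a class A scavenger receptor, had a mean of 1.82 ± 0.60 CPM in HET PBS (SD, n = 3), 3.27 ± 1.25 in KO PBS and 2.48 ± 0.75 in KO antimiR-21 (SD, n = 4 each). Siglec1, the sialic acid receptor CD169, ran from 1.04 to 2.23, from 1.40 to 4.41 and from 1.31 to 3.78 CPM in the same order. Cd163 had means of 1.35, 1.22 and 1.15 CPM, and its lowest and highest libraries, at 0.60 and 2.03 CPM, were both treated ones.

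**Figure D4:**
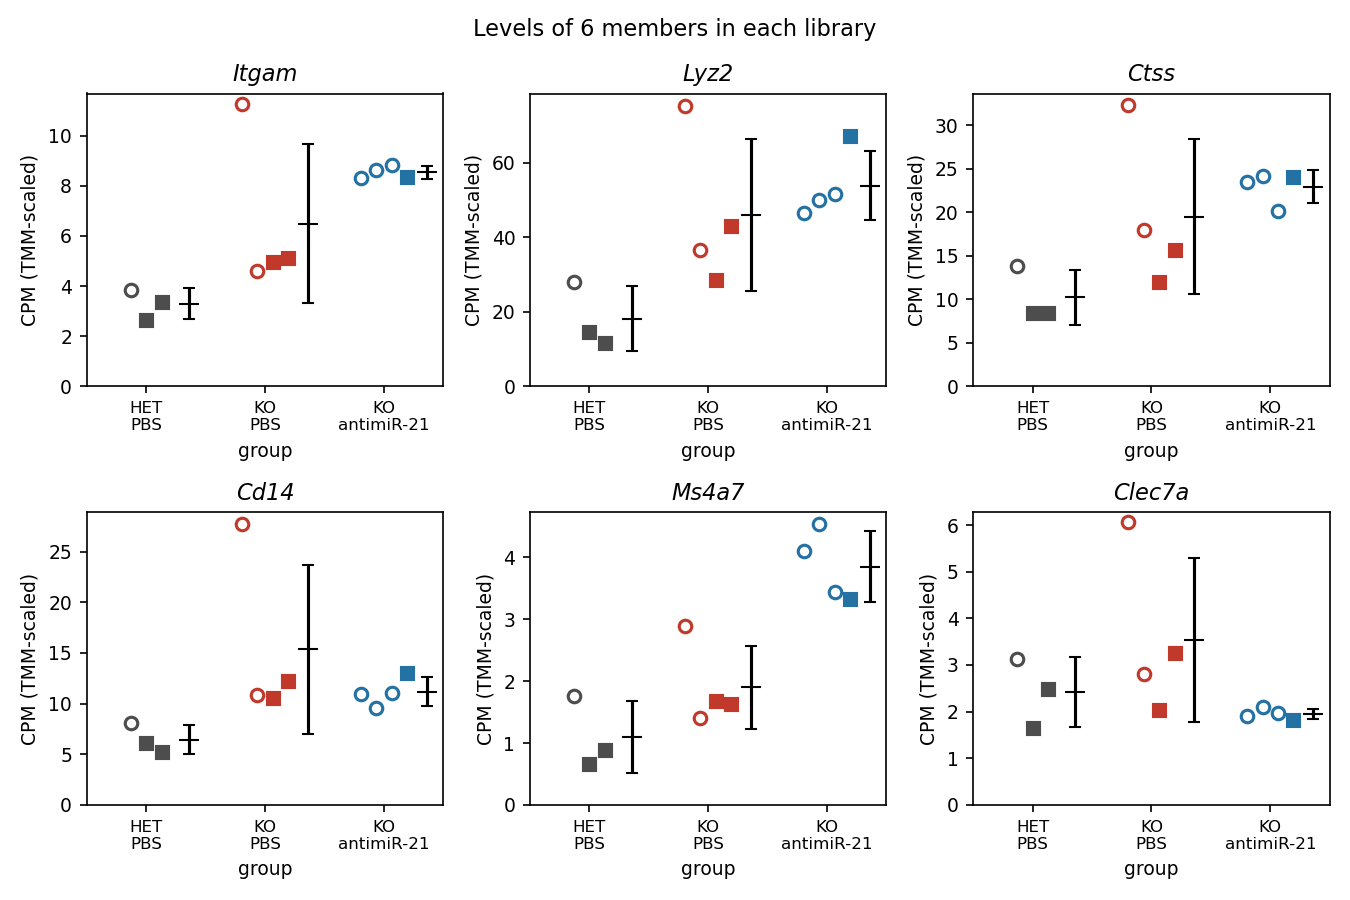
Level in CPM (vertical axis, TMM-scaled, from 0) of 6 members in each library by group, with filled squares for libraries with Y-linked reads, open circles for those without, and bars for the group mean and SD. KO PBS replicate 1 is the highest KO PBS library in each panel, Ms4a7 is above all PBS libraries in the 4 treated ones, and Clec7a lies between 1.82 and 2.10 CPM in the treated libraries.

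Trem2, a lipid-sensing receptor of tissue macrophages, signals through the adaptor Tyrobp, and Gpnmb is often made by the same lipid-loaded cells. Tyrobp was at 6.65, 4.39 and 4.18 CPM in HET PBS, at 12.0, 7.72, 5.11 and 6.13 in KO PBS, and at 6.39, 7.74, 7.56 and 9.20 in KO antimiR-21. Trem2 was at 0.94, 0.82 and 0.53 CPM in HET PBS, at 2.39, 1.0, 0.97 and 1.16 in KO PBS, and at 1.31, 1.11, 1.18 and 0.91 in KO antimiR-21. The KO PBS libraries of Trem2 were all above HET PBS, by a small margin in replicates 2 to 4, and 1 treated library fell inside the HET PBS range. The differences of Tyrobp and Trem2 in KO PBS from HET PBS were 0.61 and 0.84 with all libraries, and 0.32 ± 0.23 and 0.44 ± 0.28 without KO PBS replicate 1 (log2, SE). Per kilobase of exon, Tyrobp was at 11.6 CPM in KO PBS and Trem2 at 0.28. The length is that of all annotated exons of a gene joined, 667 bases for Tyrobp and 4946 for Trem2. It can exceed the length of the message present, and its part in this gap was not tested.

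Gpnmb, named here after its values were seen, was at 0.26, 0.33 and 0.22 CPM in HET PBS, at 2.66, 0.70, 0.35 and 0.62 in KO PBS, and at 0.55, 1.77, 1.37 and 1.23 in KO antimiR-21. Every knockout library was above every HET PBS library, with KO PBS replicate 3 above them only by a little. It had the largest differences from HET PBS in the set, 1.95 ± 0.68 in KO PBS and 2.14 ± 0.69 in KO antimiR-21 (log2, SE; edgeR adjusted p = 0.59 and 0.546), on the lowest counts. With KO PBS replicate 1 left out, the first of these was 1.0 ± 0.47, and treated kidneys exceeded untreated ones by 1.14 ± 0.40.

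Lysosomal and effector genes had higher means in both knockout groups than in HET PBS, for 4 of 4 genes tested. Every KO antimiR-21 library lay above every HET PBS library for 4 of 4, beside 3.88% of all loci. Every KO PBS library did so for 1 of 4, Lyz2, beside 3.55%. After antimiR-21, 4 of 4 had a higher mean than in KO PBS, by 0.12 to 0.26 on the log2 scale. Without KO PBS replicate 1 these differences were 0.37 to 0.59, namely 0.37 for Laptm5, 0.51 for Mpeg1, 0.58 for Lyz2 and 0.59 for Ctss, with a median of 0.54. Lyz2 (chr10:117277331-117282321) was at 28.1, 14.6 and 11.7 CPM in HET PBS, at 75.3, 36.7, 28.6 and 43.1 in KO PBS, and at 46.4, 50.1, 51.7 and 67.3 in KO antimiR-21. Every knockout library exceeded every HET PBS library, although KO PBS replicate 3 was only just above HET PBS replicate 1. Lyz2 differed from HET PBS by 1.34 ± 0.36 in KO PBS and by 1.57 ± 0.37 in KO antimiR-21 (log2, SE; edgeR adjusted p = 0.456 and 0.365). Reads of its close relative Lyz1 can be mistaken for it. Per kilobase of exon it was the highest member with a locus of its own, at 13.8 CPM in HET PBS, 34.9 in KO PBS and 40.9 in KO antimiR-21.

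Ctss (chr3:95526786-95556403) was at 13.9, 8.43 and 8.40 CPM in HET PBS, at 32.4, 18, 12.0 and 15.6 in KO PBS, and at 23.5, 24.2, 20.1 and 24.1 in KO antimiR-21. KO PBS replicate 3 lay below HET PBS replicate 1, whereas the treated libraries all lay above HET PBS and above KO PBS replicates 2 to 4. The differences from HET PBS were 0.93 ± 0.30 in KO PBS and 1.17 ± 0.30 in KO antimiR-21 (log2, SE; edgeR adjusted p = 0.546 and 0.41), the former 0.58 ± 0.21 without KO PBS replicate 1. Mpeg1, the pore-forming protein perforin-2 of phagocytes, was at 22.7, 15.0 and 12.0 CPM in HET PBS, at 39.7, 22.6, 18.4 and 26.7 in KO PBS, and at 37.2, 39.7, 24.7 and 27.0 in KO antimiR-21. Its treated libraries fell into a higher pair and a lower pair, all above HET PBS. Laptm5, a lysosomal membrane protein of leukocytes, had means of 11.4 ± 3.10 in HET PBS (SD, n = 3), 18.2 ± 5.93 in KO PBS and 19.8 ± 3.06 in KO antimiR-21 (SD, n = 4 each).

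The phagocyte oxidase makes superoxide from oxygen, with Cybb as its membrane catalytic chain and Ncf1 and Ncf4 as cytosolic subunits. Cybb was at 19.4, 13.1 and 12.4 CPM in HET PBS, at 31.1, 17.7, 15.5 and 22.0 in KO PBS, and at 22.2, 22.8, 22.9 and 19.9 in KO antimiR-21. Ncf1 was at 3.91, 2.25 and 3.29 CPM in HET PBS, at 8.26, 4.51, 3.35 and 3.80 in KO PBS, and at 4.04, 6.52, 4.86 and 6.10 in KO antimiR-21. For all 3 genes the treated libraries lay above the HET PBS libraries, while in KO PBS replicate 3 overlapped them. So did KO PBS replicate 2 for Cybb and KO PBS replicate 4 for Ncf1 and Ncf4. Ncf4 ran from 1.26 to 2.06, from 1.59 to 4.87 and from 2.52 to 4.04 CPM in the 3 groups. The treated means of the 3 exceeded the KO PBS means by 0.02 to 0.15 on the log2 scale, within 1 SE in each. Without KO PBS replicate 1 the differences were larger, at 0.25 ± 0.17 for Cybb, 0.47 ± 0.24 for Ncf1 and 0.60 ± 0.26 for Ncf4 (SE), each beyond 1 SE.

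Among surface proteins, Ms4a7 (chr19:11321039-11336146) was at 1.76, 0.66 and 0.89 CPM in HET PBS, at 2.89, 1.40, 1.67 and 1.63 in KO PBS, and at 4.10, 4.53, 3.44 and 3.32 in KO antimiR-21. The treated libraries were above all 7 PBS libraries, those of either genotype, including KO PBS replicate 1, and the PBS groups overlapped each other. The mean was 1.10 ± 0.58 in HET PBS (SD, n = 3), 1.90 ± 0.67 in KO PBS and 3.85 ± 0.57 in KO antimiR-21 (SD, n = 4 each). The difference from KO PBS was 1.02 ± 0.31 (log2, SE; edgeR adjusted p = 0.392), and 1.29 ± 0.31 without KO PBS replicate 1 (edgeR adjusted p = 0.515). The difference from HET PBS was 1.82 ± 0.36 (edgeR adjusted p = 0.364). An exact two-sided permutation test over samples gave p = 0.0286 in both comparisons, the smallest that 70 or 35 arrangements allow, which is 0.667 and 0.729 once adjusted over all loci.

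Ptprc, the leukocyte phosphatase CD45, was at 23.2, 19.5 and 15.6 CPM in HET PBS, at 35.3, 21.2, 23.0 and 25.0 in KO PBS, and at 31.6, 33.8, 27.6 and 22.7 in KO antimiR-21. Cd53, a tetraspanin of leukocytes, was at 5.92, 4.28 and 4.35 CPM in HET PBS, at 9.73, 5.41, 5.86 and 4.74 in KO PBS, and at 8.31, 9.39, 6.09 and 7.01 in KO antimiR-21. In both genes HET PBS replicate 1 overlapped KO PBS, and for Cd53 the treated libraries were all above HET PBS. Cd86, a ligand of CD28 on T cells, ran from 1.62 to 2.66 CPM in HET PBS, from 1.85 to 3.67 in KO PBS and from 1.87 to 3.65 in KO antimiR-21. Cd84, a receptor of the SLAM family, had a mean of 0.85 ± 0.45 CPM in HET PBS (SD, n = 3), 1.09 ± 0.71 in KO PBS and 1.40 ± 0.43 in KO antimiR-21 (SD, n = 4 each).

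Genes of the leukocyte cytoskeleton and signalling gave differences from HET PBS of 0.36 to 0.73 in KO PBS and 0.48 to 0.72 in KO antimiR-21, with 5 of 5 positive in each. Those of KO PBS without its replicate 1 were 0.25 to 0.48, with a median of 0.30 beside 0.56. Lcp1, the actin bundler L-plastin, was at 46.2, 34.1 and 30.8 CPM in HET PBS, at 59.9, 45.4, 39.4 and 47.5 in KO PBS, and at 54.0, 51.4, 49.5 and 51.0 in KO antimiR-21. Coro1a, an actin-binding protein of leukocytes, was at 15.0, 9.52 and 9.64 CPM in HET PBS, at 27.9, 17.7, 13.0 and 16.9 in KO PBS, and at 20.5, 20.4, 17.0 and 16.8 in KO antimiR-21. Hcls1, a cortactin relative of blood cells, was at 10.7, 8.76 and 7.47 CPM in HET PBS, at 13.0, 11.1, 9.78 and 12.3 in KO PBS, and at 14.8, 15.6, 12.7 and 11.2 in KO antimiR-21. In each of these genes the treated libraries lay above HET PBS and KO PBS replicate 3 lay below HET PBS replicate 1. For Lcp1, KO PBS replicate 2 lay below it too. Coro1a overlaps exons of Bola2, and Lcp1 those of Gm15628 and Gm15629, as Plek does those of Cnrip1 and Ncf1 those of Gtf2ird2. Plek, a substrate of protein kinase C in leukocytes, had means of 4.06 ± 0.58, 6.23 ± 2.69 and 6.23 ± 1.04 CPM, and Aif1 (IBA1), a calcium-binding protein of macrophages, of 1.74 ± 0.42, 2.56 ± 0.88 and 2.43 ± 0.32 CPM (SD, n = 3, 4 and 4).

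The opposite positions of Ms4a7 and Clec7a show within single libraries, where their ratio does not depend on library size. The pair was picked after the values were seen, so the ratio is a description without a test. Ms4a7 over Clec7a was 0.56, 0.40 and 0.36 in HET PBS, 0.48, 0.50, 0.83 and 0.50 in KO PBS, and 2.14, 2.16, 1.75 and 1.82 in KO antimiR-21. KO PBS replicate 1, far above its group in both genes, was close to replicates 2 and 4 in the ratio. Itgam over Clec7a ran from 1.23 to 1.60 in HET PBS, from 1.57 to 2.46 in KO PBS and from 4.11 to 4.59 in KO antimiR-21. The treated libraries thus lay above all PBS libraries in both ratios, whether or not they had Y-linked reads.

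**Figure D5:**
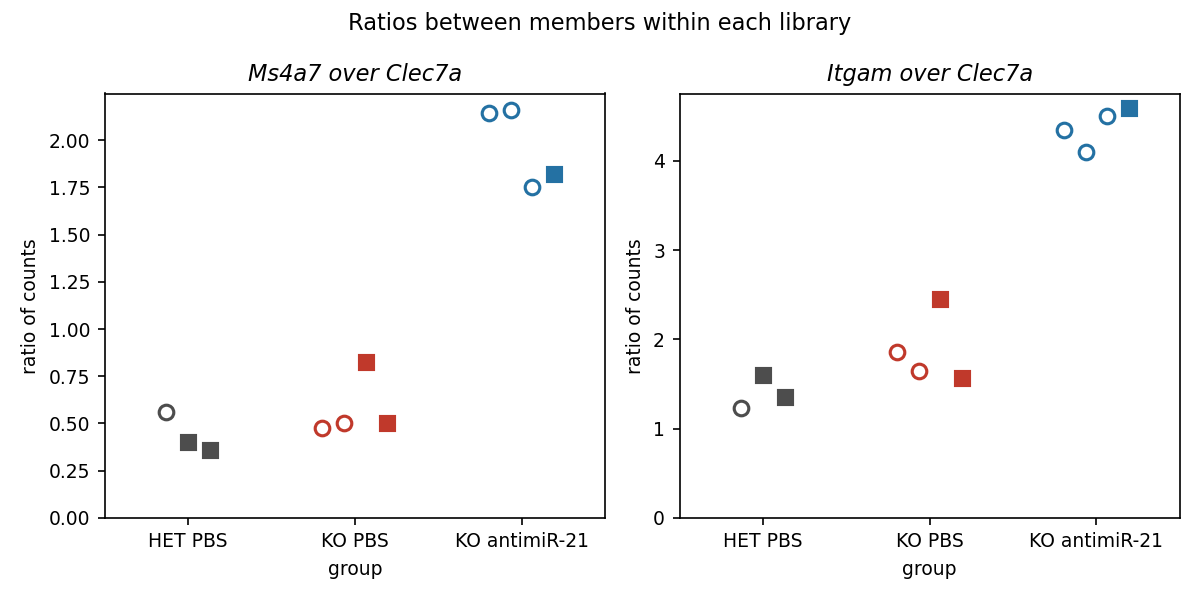
Ratio of counts (vertical axis, from 0) of Ms4a7 to Clec7a (left) and of Itgam to Clec7a (right) in each library by group, with filled squares for libraries with Y-linked reads and open circles for those without. In the left panel the treated libraries lie between 1.75 and 2.16 and the PBS libraries between 0.36 and 0.83.

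Of 59 further macrophage genes outside the set, 51 had a higher mean in KO PBS than in HET PBS (median 0.50), 26 a higher mean after antimiR-21 than in KO PBS (median -0.01), and 52 a higher mean after antimiR-21 than in HET PBS (median 0.47). None of the 3 comparisons gave an adjusted p under 0.05 for any of them in edgeR. At an unadjusted p under 0.05, 19 were higher in the first and 19 in the last, beside 4.21% and 5.04% of all loci. In the second, 4 were higher and 1 lower, beside 4.76% and 3.46% of all loci. Without KO PBS replicate 1 the medians were 0.30, 0.19 and 0.47. In that fit 10, 11 and 29 genes were higher at an unadjusted p under 0.05, beside 2.28%, 4.55% and 5.61% of all loci. Its second comparison had 1 gene lower, beside 3.24%. Spp1 is on this further list and also among the injured tubule markers, and its part in these counts was not tested. Csf1, the ligand of Csf1r, was at 15.5, 13.5 and 18.8 CPM in HET PBS, at 34.3, 22.3, 21 and 25.8 in KO PBS, and at 17.7, 18.1, 25.8 and 17.4 in KO antimiR-21. The KO PBS libraries of Csf1 were all above HET PBS, and 3 of the 4 treated libraries were back within the HET PBS range, with a difference between treatments of -0.39 ± 0.18 (log2, SE; edgeR adjusted p = 0.62).

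Further genes with the smallest p included Csf2rb2, a paralogue of Csf2rb with which it can share reads, at 1.06 ± 0.26 in KO PBS against HET PBS (log2, SE), the lymphocyte and myeloid surface peptide Cd52 at 1.04 ± 0.28 and the transcription factor Runx1 at 1.15 ± 0.35. After antimiR-21, Nos2, the inducible nitric oxide synthase, was at 3.22, 2.71, 3.14 and 2.89 CPM, below its levels of 4.13, 4.91, 4.63 and 4.81 in KO PBS and the 3.95, 3.60 and 3.47 of HET PBS. The treated libraries of Nos2 were below all 7 PBS libraries, with a difference from KO PBS of -0.63 ± 0.14 (log2, SE; edgeR adjusted p = 0.315). Clec4a1, a C-type lectin receptor, was at 4.26, 4.20, 4.03 and 4.28 CPM after antimiR-21, whereas KO PBS gave 3.67, 2.61, 1.67 and 2.60 and HET PBS gave 2.27, 1.48 and 1.87 (difference from KO PBS 0.67 ± 0.23, edgeR adjusted p = 0.462). Like Ms4a7, it was above all PBS libraries after treatment. Against KO PBS, all treated libraries lay above for 2 of the 59 further genes, beside 2.34% of all loci. They all lay below for 1 of the 59, beside 280 of 14380 loci. These counts are close to what all loci gave. Fyb, a leukocyte adaptor protein, differed from KO PBS by 0.87 ± 0.26, and Ly6c1, which endothelium makes too, by 0.36 ± 0.14. The small GTPase Rac2, which activates the oxidase, differed from HET PBS by 1.30 ± 0.32 after antimiR-21.

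Markers of other leukocytes were summed in each library. The filter on low counts kept 10 T cell, 3 B cell and 3 dendritic cell genes. It kept 2 neutrophil, 2 mast cell and 1 natural killer (NK) cell gene. The 6 NK genes gave 0.85 to 1.89 CPM in HET PBS, 1.41 to 2.3 in KO PBS and 0.96 to 1.97 after antimiR-21. The NK gene kept was higher in KO PBS than in HET PBS by 1.73 (log2, edgeR adjusted p = 0.377). Its KO PBS libraries all lay above HET PBS. For 11 T cell genes the sums were 69.6 to 77.0 CPM in HET PBS, 78.9 to 90.8 in KO PBS and 72.5 to 86.4 in KO antimiR-21, and for 8 neutrophil genes 16.0 to 22.7, 17.8 to 23.2 and 17.1 to 22.3 CPM. Of 6 B cell genes the sums were 20.3 to 30.9, 23.1 to 28.7 and 23.9 to 29.6 CPM, and of 5 dendritic cell genes 18.1 to 23.5, 17.8 to 23.9 and 17.7 to 27.8. Of 6 mast cell genes the sums were 19.8 to 45.6, 25.4 to 31.4 and 27.9 to 39.8 CPM, with Fcer1a, which defines these cells, at 0 in all libraries. The 31 members with a locus of their own summed to 194 to 311 CPM in HET PBS, 277 to 547 in KO PBS and 371 to 426 in KO antimiR-21. The T cell sums of HET PBS and KO PBS did not overlap, whereas those of the injured tubule markers did. Of the 10 T cell genes kept, 9 had a higher mean in KO PBS than in HET PBS. At an unadjusted p under 0.05 in edgeR, 0 were higher, beside 4.21% of all loci. For 0 of them did every KO PBS library lie above every HET PBS library, beside 3.55% of all loci. The part of other cells in the members' levels was not tested.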

How the data were processed

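Whole-kidney RNA of 11 mice was sequenced after TruSeq RNA v2 preparation, a kit that does not mark strand, per the labels' protocols. The authors deposited estimated counts per gene, in steps that left 47.4% of values above 0 not whole, and a matrix of log2 values, which was used only as an alternative. Per the submitters' processing notes, the build was mm10 and the tools were STAR, HTSeq 0.5.4p5, SAMtools, FastQC and limma, whose roles are not stated. How reads were counted, and on which annotation, is not given in the sources. Rows with identical counts in every library and a total of at least 50 were joined (1513 joint loci). After rounding, the test was that of edgeR 4.0.16 under R 4.3.3 (filterByExpr, TMM, robust quasi-likelihood fit over all 11 libraries in 3 groups, two-sided, Benjamini-Hochberg at 0.05). The biological coefficient of variation was 0.215. Standard errors were derived from the fitted log2 difference and the F statistic of its test. Intervals are at 95% by the normal quantile, which makes them somewhat narrower than that test implies. The edgeR fit was tested on simulated counts with known changes, for KO PBS against HET PBS and with no library set apart. The other steps were not tested in this way. Nothing in the labels beyond replicate numbers says which animals or litters the samples came from, so p-values measure the spread between these samples. Library totals of 17.9 to 39.7 M limit precision for members near 1 CPM, and intervals cover counting error and the spread between libraries together.

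The members and lists were chosen with earlier results of these data known. Named with values in every library were the 6 members with the smallest p in each comparison and the 2 with the highest mean CPM in each role. Of the further list the 4 with the smallest p were named, some by their difference alone. Libraries with Ddx3y above 5 CPM are those with Y-linked reads. The per-library score used log2 CPM with a prior count of 2. Exact permutation tests ran over samples. DESeq2 1.42.0, limma 3.58.1 (voom and the log2 matrix), other scalings and filters, covariates, a block and the omission of each library were alternatives. Gene models are GENCODE vM21 on GRCm38, and sequences are from RefSeq GRCm38.p6.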

Additional observations from a re-analysis of the deposited data

Results flagged for a closer look

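In the KO PBS group 1 library, replicate 1, lay far from the other 3 for 6 of the members: Cd14 was at 27.8 CPM there, Itgam at 11.2, Itgax at 11.3, Mrc1 at 21.3, Trem2 at 2.39 and Gpnmb at 2.66. In the KO antimiR-21 group the mean log2 deviation of the members was 0.787 in replicate 2, apart from the other 3 libraries, which lay between 0.652 and 0.670. Such a library was sought in 66 sets of 4 values, all from the KO PBS and KO antimiR-21 libraries, and was found in 7. In 6 of the 7 it was KO PBS replicate 1. For 1 set alone, chance gives about 1 in 20. The sets share libraries, so 7 of 66 cannot be read against that rate. The difference in mean deviation between KO antimiR-21 and KO PBS was -0.154 among libraries without Y-linked reads and 0.299 among those with them. These point in opposite directions, and the difference between them was not tested.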

How the results depend on the processing

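DESeq2 called 82 loci in KO PBS against HET PBS, 125 in KO antimiR-21 against KO PBS and 75 in KO antimiR-21 against HET PBS, where edgeR called 0, 0 and 1. Of the members, DESeq2 called 2 (Cd14 and Lyz2), 0 and 4 (Ms4a7, Itgam, Lyz2 and Ctss). Loci called in KO PBS against HET PBS and in KO antimiR-21 against HET PBS numbered 1 and 2 with limma on the deposited log2 matrix, and 3 and 2 with Y-linked status as a covariate. With limma-voom, 0 were called in the last comparison. With that covariate and KO PBS replicate 1 left out, an alternative chosen after seeing the data, 6 and 12 were called, and 1 member (Itgam) in the latter. Y-linked status as a covariate gave medians of the members of 0.56, -0.02 and 0.49 in the 3 comparisons. Replicate numbers did not pair the samples (correlations of same-numbered deviations from -0.44 to 0.63), and the replicate block gave 2, 26 and 4 loci called and no member. Leaving out 1 library at a time gave 0 to 2, 0 to 16 and 0 to 4 loci called in the 3 comparisons, with 16 without KO antimiR-21 replicate 3. It gave 0, 0 and 0 to 1 members called, the 1 being Itgam without KO PBS replicate 1, and medians of 0.314 to 0.852, -0.105 to 0.309 and 0.534 to 0.894. Of 395 recomputed differences of named members, 387 kept direction and side of the threshold, 8 passed it and 0 reversed. These members were named by smallest p and none passed in the main fit, so keeping the side means staying uncalled. The refits share libraries, and size does not enter the count. Cd14 between treatments went from -0.46 to -0.005 without KO PBS replicate 1 and counts as kept. Depth limits Gpnmb, Trem2, Cd84 and Cd163 most.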
